A study of Mus musculus with 25 samples.

Results

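Aminoacyl tRNA synthetases are the enzymes that load each amino acid onto its matching tRNA. RNA levels of their genes were compared in hematopoietic stem cells of mice with and without the zinc finger transcription factor ZNF143. The genes were chosen by symbol, as the one-letter style names of the family (such as Aars and Aars2), and were not chosen by any measured value. The rule found 37 of the 23116 genes in the table, of which 20 were counted as cytosolic and 17 as mitochondrial. No Gars2 or Kars2 was found. Gars and Kars were counted as cytosolic only, and any mitochondrial form that they encode is not separated by levels per gene. All 37 had a mean of at least 0.1 FPKM (fragments scaled by gene length and library total) and were tested.

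The cells were HSLAM cells, the LSK+ CD150+ CD48- stem cell population sorted from bone marrow of adult C57BL/6 mice. Control mice carried the floxed allele without the recombinase (Znf143 f/f x Rosa26ERT2-Cre-, called Znf143 f/f), and deleted mice carried both (Znf143 f/f x Rosa26ERT2-Cre+, called Znf143 -/-). Both groups of 3 libraries received tamoxifen at the middle dosage over 10 days, so that the recombinase and the deletion differ together between the groups and cannot be told apart. The loxP sites lie around exon 1, the recombinase is expressed from a ubiquitous promoter, and the labels call the deleted group a CTCF knockout, whereas the study describes Znf143 deletion.

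Each amino acid has its own synthetase, and the enzymes fall into classes I and II, which differ in the fold of their catalytic domain. In the cytosol, several of them sit with the scaffold proteins AIMP1, AIMP2 and AIMP3 in the multisynthetase complex. Most mitochondrial synthetases are encoded by separate nuclear genes and charge the tRNAs made in the organelle. When amino acids run short or the endoplasmic reticulum is stressed, the transcription factor ATF4 is known to activate many cytosolic synthetase genes through C/EBP-ATF response elements.

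The promoter letters that bear on these genes are shown first. RefSeq promoters (GRCm38.p6, 250 bases before to 50 bases after the start) were matched for 27 of the 37 genes. Among the genes that were not matched are Cars, Hars, Hars2, Lars, Nars, Pars2, Rars, Vars and Wars. The letters searched on both strands were the core CCCAGNATG of the ZNF143 motif, its extension ACTACA, and the C/EBP-ATF response element TGATGNAA. The C/EBP-ATF letters were found in 5 of the 27 synthetase promoters (Aars, Gars, Iars, Tars and Yars), all of them cytosolic, and in 3.97% of all 32851 promoters. The stretches below are written 5′ to 3′ on the strand of the gene, with the element in capitals as it reads on that strand.
Gars (chr6:55037955-55037994, plus strand, element from base -30): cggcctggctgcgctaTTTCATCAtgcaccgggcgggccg
Aars (chr8:111033714-111033753, plus strand, from base -112): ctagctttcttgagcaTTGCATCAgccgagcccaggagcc
Tars (chr15:11399650-11399689, minus strand, from base -15): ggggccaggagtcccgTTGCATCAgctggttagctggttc
Yars (chr4:129189890-129189929, plus strand, from base 4): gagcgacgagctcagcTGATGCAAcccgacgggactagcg

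The ZNF143 core was found in 0 of the 27 synthetase promoters, against 2.04% of all promoters and 9.67% of the 1396 promoters of genes on the study's list of ZNF143 direct targets. The shorter ACTACA was found in 3 synthetase promoters (Farsa, Tars and Yars2), against 10.3% of all promoters and 39.7% of the target promoters. The promoter of Rpp30, a ribonuclease P subunit described further on, holds the core and is shown beside that of Yars2, the synthetase on the target list that holds ACTACA. Among the other genes of the lists used here, the promoters of Asns, which was higher in Znf143 -/-, and of Eif2ak2 also hold the core. The Asns promoter holds the C/EBP-ATF letters and ACTACA as well, and the Rpp30 promoter also holds ACTACA. Capitals mark the motif. The last stretch is the 100 bases before the start of Aars2, in which none of the searched letters were found.
Rpp30 (chr19:36083653-36083693, plus strand, core from base -47): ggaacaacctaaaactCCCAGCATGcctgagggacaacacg
Yars2 (chr16:16302715-16302747, plus strand, ACTACA from base -239): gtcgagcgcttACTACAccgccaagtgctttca
Aars2 (chr17:45506732-45506831, plus strand): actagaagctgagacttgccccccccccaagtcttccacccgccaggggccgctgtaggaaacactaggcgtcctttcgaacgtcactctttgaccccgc
A match of letters is a description of the sequence and not a measured binding site, and the absence of a match covers only this window.

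Each library held 38643255 to 57895793 fragments that fell on genes. Zfp143, the mouse symbol of Znf143, was measured at 3.07, 4.43 and 3.66 FPKM in the Znf143 f/f and at 0.155, 0.298 and 0.270 FPKM in the Znf143 -/- libraries (log2 fold change -3.50, SE 0.239, limma adjusted p = 0.0010). The libraries did not stand at equal distances from each other. With fragments compared gene by gene, the mean chi-square per gene, which is 1 for counting error alone, was 5.57 between Znf143 f/f 1 and 3 and 7.68 between Znf143 -/- 2 and 3, and at least 89.6 in the other 13 pairs of libraries. Znf143 f/f 2 and Znf143 -/- 1 therefore stand apart within their groups, although the study describes 3 biological replicates per group from 3 pairs of littermates, without saying which libraries form a pair. Whether the close pairs share a source of RNA was not tested, and p-values measure only the spread between these libraries. Of 8 HSLAM markers, Ly6a was higher and Mecom lower in Znf143 -/- (log2 fold changes 1.13 and -0.55, limma adjusted p = 0.0045 and 0.0208), and Cd48, whose protein was gated out, went from 9.56 to 11.1 FPKM to 19.6 to 20.4 FPKM.

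The synthetase genes were expressed over a wide range of levels in control HSLAM cells. The median over genes of the mean Znf143 f/f level was 27.4 FPKM for the cytosolic and 6.69 FPKM for the mitochondrial genes. Nars (asparagine) had the highest cytosolic level, at 80.6, 74.4 and 79.5 FPKM in Znf143 f/f and 77.5, 89.9 and 85.7 FPKM in Znf143 -/-. The groups overlapped, and the log2 fold change of Nars was 0.11 (SE 0.0892, limma adjusted p = 0.514). Cars (cysteine) had the lowest cytosolic level, near 5 FPKM.

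Among mitochondrial genes, Lars2 (leucine) was listed at 1256, 1475 and 1300 FPKM in Znf143 f/f and 1777, 1257 and 1339 FPKM in Znf143 -/-, and Rars2 (arginine) came next with a mean of 23.1 FPKM. In the Lars2 transcript of 3894 bases, bases 3022 to 3419 have 5 copies of at least 95% identity and 100 bases on 4 other chromosomes, so the level of Lars2 is uncertain. Mars2 (methionine) had the lowest mitochondrial level, at 1.65, 1.52 and 1.43 FPKM in Znf143 f/f and 2.11, 1.72 and 1.65 FPKM in Znf143 -/-. In the order of levels, neighbours did not overlap over the Znf143 f/f libraries in 6 of 19 cytosolic and 5 of 16 mitochondrial steps, so that most neighbours did not differ beyond their spread.

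**Figure D1:**
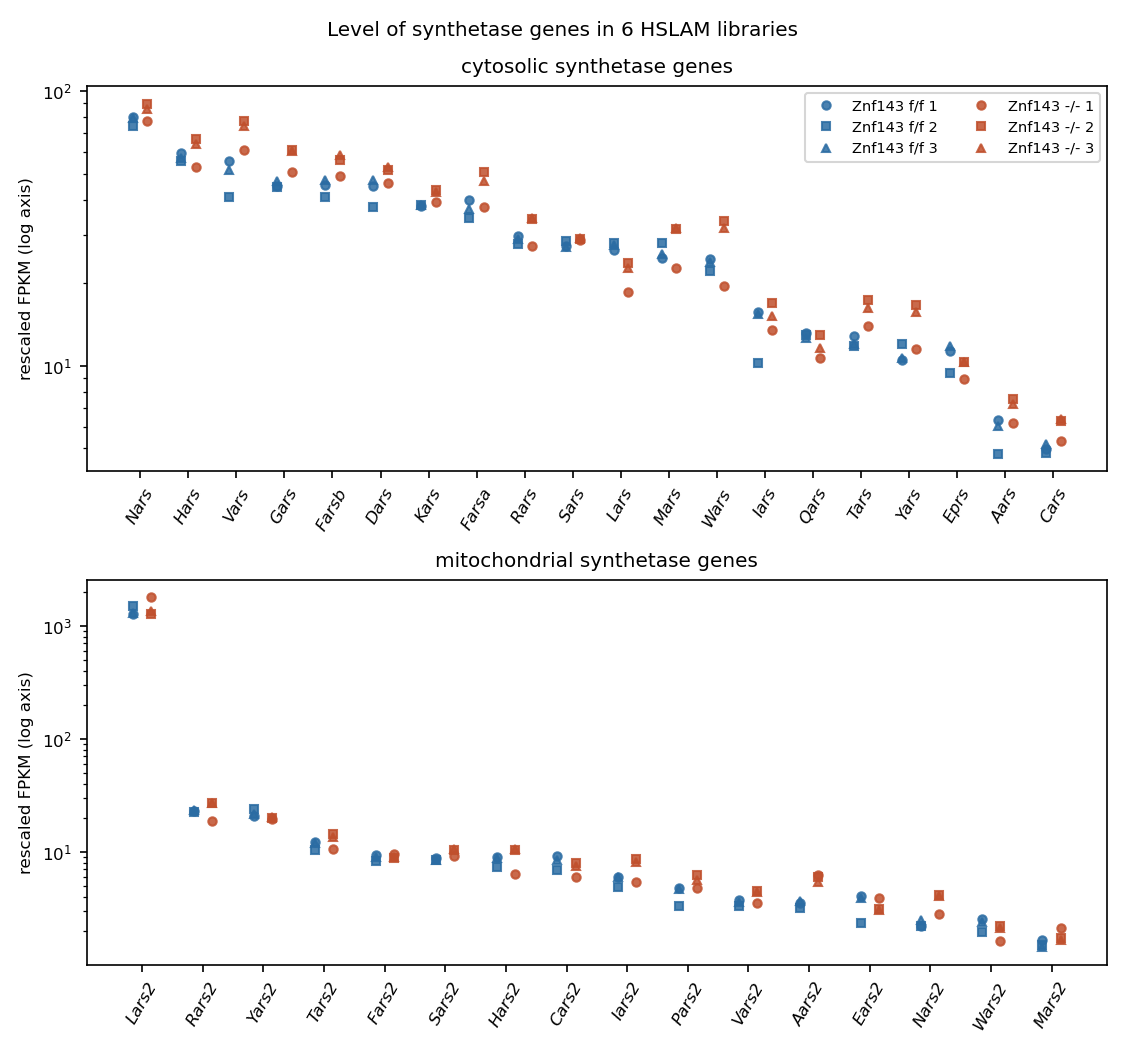
Rescaled FPKM of synthetase genes (log axis) in each of the 6 libraries, with cytosolic genes above and mitochondrial genes below, ordered by the mean Znf143 f/f level. Points are single libraries. Cytosolic genes lie mostly above mitochondrial ones (medians of 27.4 and 6.69 FPKM in Znf143 f/f), and Lars2 stands alone, at 1256 FPKM or more in every library.

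After Znf143 deletion, 1 of the 37 synthetase genes was called at a limma adjusted p under 0.05. It was Aars2, the mitochondrial alanine enzyme, at 170% of the control mean. That count is close to the 3% of all tested genes called higher, and the call was lost in some alternatives. None of the 20 cytosolic genes passed at an adjusted p under 0.05, and 5 of them were higher and 1 lower at an unadjusted p under 0.05. Of all 19279 genes tested, 3% were called higher and 2.99% lower at the adjusted threshold, and 12.4% were higher and 11.8% lower at an unadjusted p under 0.05. Among the 17 mitochondrial genes, 2 were higher and 0 lower at an unadjusted p under 0.05. In these bulk libraries, fewer cells of a type and less RNA per cell cannot be told apart.

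Aars2 (chr17:45506841-45520843 in GRCm38, plus strand) was measured at 3.53, 3.21 and 3.67 FPKM in Znf143 f/f and 6.26, 5.98 and 5.42 FPKM in Znf143 -/-. All 3 Znf143 -/- libraries lay above all 3 controls, and Znf143 -/- 1, which was low for most other synthetases, had the highest value. The log2 fold change was 0.75 (SE 0.109, 95% interval 0.48 to 1.01, limma adjusted p = 0.0148). The call was lost when the close pairs of libraries were each averaged to 1 sample (log2 fold change 0.79, limma adjusted p = 0.257) and when Znf143 f/f 1, Znf143 f/f 3, Znf143 -/- 2 or Znf143 -/- 3 was left out (limma adjusted p from 0.0667 to 0.0741). It was also lost with the replicate number as a block (limma adjusted p = 0.0954), although no source says that the numbers mark the littermate pairs.

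Aars, the cytosolic alanine enzyme, had a log2 fold change of 0.29 (limma adjusted p = 0.275). The ratio of Aars2 to Aars, with both in FPKM, was 0.557, 0.671 and 0.607 in Znf143 f/f and 1.02, 0.792 and 0.749 in Znf143 -/-. The ratios did not overlap between groups, and the mean log2 ratio was 0.47 higher in Znf143 -/- (two-sided exact permutation p = 0.1, the smallest that 3 against 3 libraries allow). This ratio was taken after the values of Aars2 were known.

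Nars2 (chr7:96951505-97064758, plus strand), which charges asparagine tRNA in mitochondria, had the next largest log2 fold change. It was measured at 2.23, 2.22 and 2.495 FPKM in Znf143 f/f and 2.85, 4.17 and 4.11 FPKM in Znf143 -/-. The groups did not overlap, with Znf143 -/- 1 closest to the controls. The log2 fold change was 0.64 (SE 0.174, limma adjusted p = 0.0822), and the exons overlap those of an antisense gene, C230038L03Rik, whose reads are not separated by a library kit without strand information. Iars2, the mitochondrial isoleucine enzyme, was at 5.95, 4.93 and 5.99 FPKM in Znf143 f/f and 5.45, 8.70 and 8.16 FPKM in Znf143 -/-, with overlapping groups (log2 fold change 0.37, SE 0.193, limma adjusted p = 0.294). Exons of other synthetase genes also overlap antisense genes, Iars2, Aars, Farsb, Yars and Cars among them. Those of Aars overlap exons of Exosc6 on the same strand as well. Such overlaps also limit the ratios that use Aars or Farsb.

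The cytosolic gene with the largest log2 fold change was Vars (chr17:35000987-35016322, plus strand), the valine enzyme. Vars was measured at 55.4, 41.2 and 51.3 FPKM in Znf143 f/f and 60.7, 77.6 and 74.8 FPKM in Znf143 -/-. All Znf143 -/- libraries lay above the controls, whose lowest value was in Znf143 f/f 2. The log2 fold change was 0.53 (SE 0.147, 95% interval 0.18 to 0.88), and the limma adjusted p was 0.0889.

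Yars (tyrosine) was at 10.5, 11.96 and 10.7 FPKM in Znf143 f/f and 11.5, 16.6 and 15.7 FPKM in Znf143 -/-. Znf143 -/- 1 lay within the control range and the other two above it (log2 fold change 0.39, SE 0.152, limma adjusted p = 0.183). Tars (threonine) was at 12.8, 11.8 and 12.02 FPKM in Znf143 f/f and 13.9, 17.3 and 16.3 FPKM in Znf143 -/-. The groups of Tars did not overlap (log2 fold change 0.37, SE 0.105, limma adjusted p = 0.0939). The Tars transcript has 12 copies of at least 95% identity and 100 bases elsewhere in the genome, so the level of Tars is uncertain, as is that of Lars2. Gars (glycine) and Farsb, the beta subunit of the phenylalanine enzyme, had log2 fold changes of 0.33 and 0.29 (limma adjusted p = 0.101 and 0.149).

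**Figure D2:**
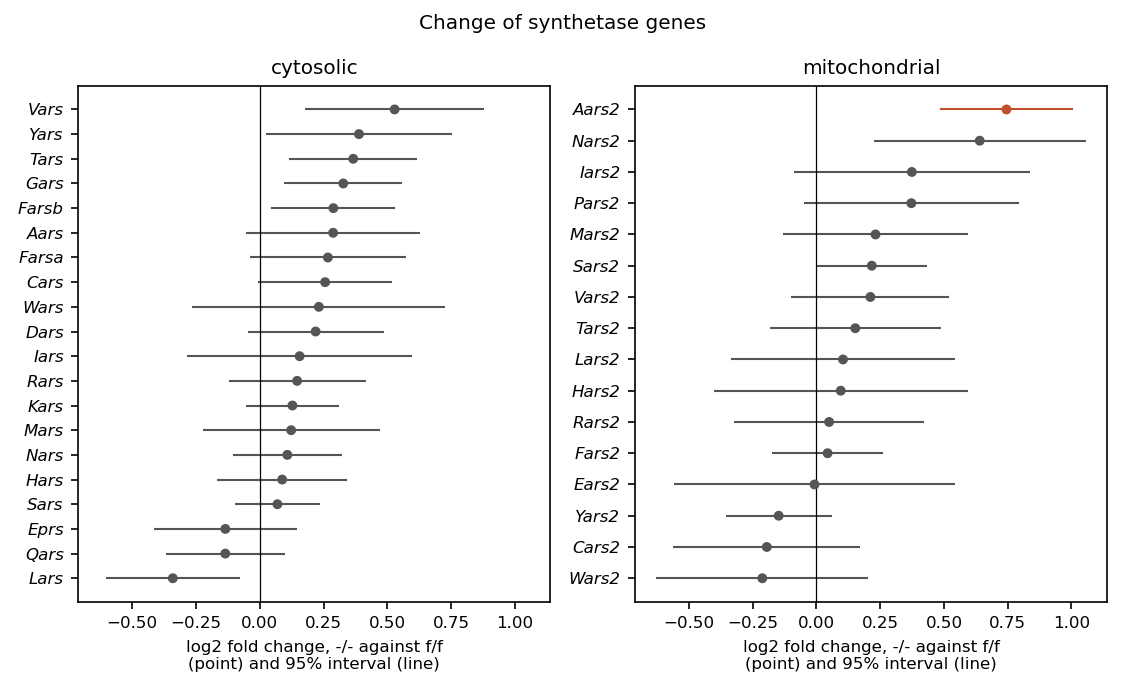
Log2 fold change of synthetase genes in Znf143 -/- against Znf143 f/f (points) with its 95% interval (lines), sorted within cytosolic and mitochondrial genes. Aars2 (0.75, in orange) is the gene with an adjusted p under 0.05, and Lars (-0.34) lies at the other end.

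The alpha and beta subunits of the phenylalanine enzyme are encoded by separate genes. The ratio of Farsb to Farsa was 1.13, 1.19 and 1.27 in Znf143 f/f and 1.29, 1.10 and 1.25 in Znf143 -/-. The groups overlapped, and the mean log2 ratio differed by 0.02 (two-sided exact permutation p = 0.9).

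Log2 fold changes were above 0 for 17 of the 20 cytosolic and 13 of the 17 mitochondrial genes, against 50.7% of all tested genes. The median log2 fold change was 0.19 for the cytosolic and 0.15 for the mitochondrial genes, beside a median of 0.0065 over all tested genes. The cytosolic median was 0.10 without Znf143 -/- 2, and the mitochondrial median was 0.08 without Znf143 f/f 2 and 0.23 without Znf143 -/- 1. All Znf143 -/- libraries lay above all controls for 7 cytosolic genes (Vars, Gars, Farsb, Kars, Sars, Tars and Cars) and 3 mitochondrial genes (Aars2, Sars2 and Nars2), and all lay below for Lars and Yars2. Over all tested genes, the groups did not overlap with Znf143 -/- higher in 15.4% and lower in 15.3%. On the values as deposited, the median was 0.30 for the cytosolic genes, 0.26 for the mitochondrial genes and 0.11 for all tested genes.

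By enzyme class, the 18 class II genes all had log2 fold changes above 0, from 0.04 to 0.75 with a median of 0.22. The groups did not overlap for 8 of them, all with Znf143 -/- higher, beside 15.4% of all tested genes. The log2 fold change of Fars2 turned to just below 0 without Znf143 f/f 2, and that of Hars2 without Znf143 -/- 2 or 3. Of the 18 class I genes, 12 lay above 0, with a median of 0.13. The groups did not overlap for 2 higher genes and 2 lower genes, beside 15.4% higher and 15.3% lower over all tested genes. Eprs, which joins a class I glutamate and a class II proline enzyme in 1 protein, was counted in neither class. The difference between classes was not tested, and the genes share the same 6 libraries.

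Among the 8 genes of the multisynthetase complex, 5 had a log2 fold change above 0 and the median was 0.13. The 3 below 0 were Lars (leucine, -0.34), Eprs (-0.14) and Qars (glutamine, -0.14), which are also the only cytosolic synthetases below 0. All 12 cytosolic genes outside the complex lay above 0, with a median of 0.28. The groups did not overlap, with Znf143 -/- higher, for 6 of the 12 genes, beside 15.4% of all tested genes. The scaffold genes Aimp1 and Aimp2 and Eef1e1, which encodes AIMP3, had log2 fold changes of -0.17, 0.05 and -0.09, with overlapping groups (limma adjusted p = 0.523, 0.801 and 0.587).

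Of the 37 synthetase genes, 4 were on the study's list of ZNF143 direct targets (Lars, Mars, Cars and Yars2), beside 6.98% of all tested genes. That list was chosen partly on these libraries and is not independent evidence of a direction. Lars was measured at 26.3, 28.0 and 27.5 FPKM in Znf143 f/f and 18.5, 23.6 and 22.7 FPKM in Znf143 -/-. All Znf143 -/- libraries of Lars lay below the controls, with Znf143 -/- 1 lowest (log2 fold change -0.34, SE 0.110, limma adjusted p = 0.122).

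Yars2, the mitochondrial tyrosine enzyme, was at 20.6, 24.0 and 21.4 FPKM in Znf143 f/f and 19.4, 19.8 and 20.3 FPKM in Znf143 -/-. The groups did not overlap, but the gap between the highest Znf143 -/- and the lowest control library was small beside the spread of the controls (log2 fold change -0.15, SE 0.0870, limma adjusted p = 0.353). Cars was at 4.97, 4.82 and 5.199 FPKM in Znf143 f/f and 5.31, 6.30 and 6.40 FPKM in Znf143 -/-. The Znf143 -/- libraries of Cars all lay above the controls (log2 fold change 0.26, SE 0.110, limma adjusted p = 0.216).

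Mars, the cytosolic methionine enzyme, was at 24.6, 27.9 and 25.6 FPKM in Znf143 f/f and 22.7, 31.5 and 31.7 FPKM in Znf143 -/-. Znf143 -/- 1 lay below and the other two above all controls (log2 fold change 0.12, SE 0.145, limma adjusted p = 0.657). The exons of Mars overlap those of Ddit3 on the opposite strand, and their reads are not separated. None of the 4 genes on the target list passed the test.

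The lowest library of each group was the same for many synthetase genes. Znf143 -/- 1 was the lowest of the Znf143 -/- libraries for all 20 cytosolic and 12 of the 17 mitochondrial genes, against 45.6% of all tested genes. Znf143 f/f 2 was the lowest control for 14 cytosolic and 14 mitochondrial genes, against 44.7% of all tested genes. The summed level of the 20 cytosolic genes was 616, 568 and 611 FPKM in Znf143 f/f and 601, 737 and 719 FPKM in Znf143 -/-. Znf143 -/- 1 lay within the control range of this sum, and the other two lay above it. For the mitochondrial genes without Lars2, the sum was 128, 116 and 127 FPKM in Znf143 f/f and 117, 143 and 141 FPKM in Znf143 -/-, with Znf143 -/- 1 again within the control range.

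**Figure D3:**
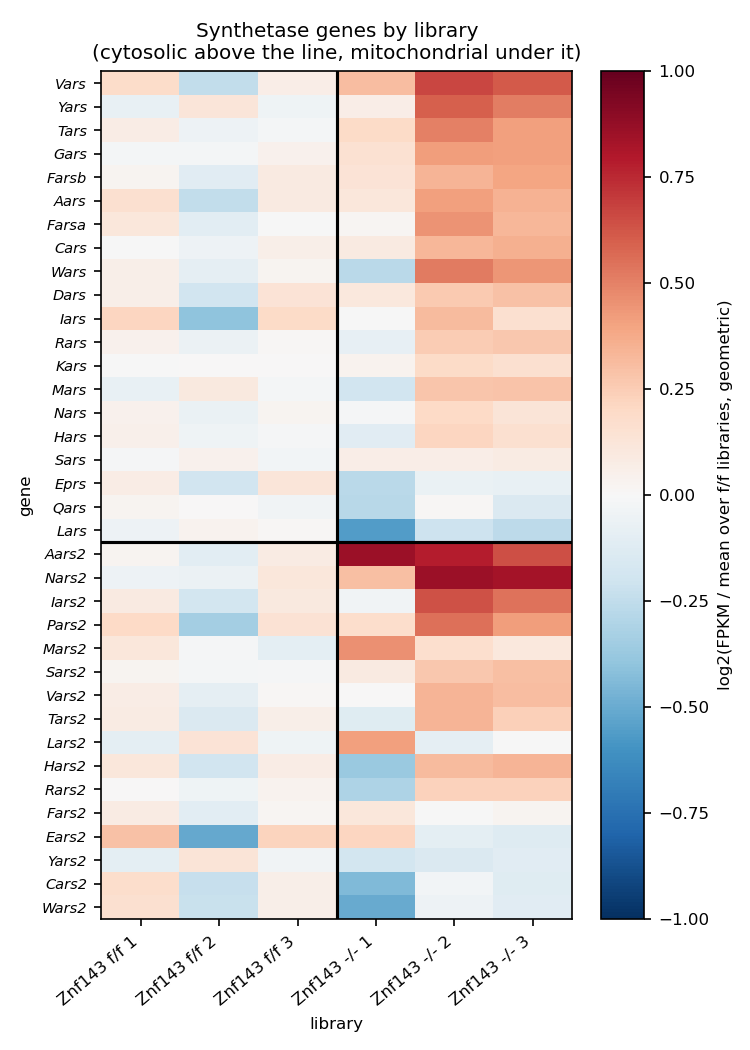
Level of synthetase genes (rows) in each library (columns) as log2 of its FPKM over the geometric mean of the Znf143 f/f libraries, with red higher and blue lower. Cytosolic genes are above the horizontal line. The column of Znf143 -/- 1 is paler or bluer than those of Znf143 -/- 2 and 3 for all 20 cytosolic genes, while Aars2 is red in all 3.

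Without Znf143 -/- 1, 8 synthetase genes were called higher, 5 cytosolic (Gars, Tars, Vars, Wars and Yars) and 3 mitochondrial (Aars2, Nars2 and Iars2), with limma adjusted p from 0.0170 to 0.0473. In that fit, 5.86% of all tested genes were called higher, and the Znf143 -/- group consisted of the close pair alone. With each close pair averaged to 1 sample, 0 of the 37 synthetase genes and 47 genes in all were called by limma.

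Markers of other blood cells also differed between libraries. The summed level of 7 neutrophil and monocyte markers was 198 to 265 FPKM in Znf143 f/f and 256 to 417 FPKM in Znf143 -/-, and 3 of the 7 were called higher (S100a8, Elane and Csf1r, the last listed at 0 in 1 library). Most of this sum was Prtn3 (278 FPKM in Znf143 -/- 1, against 140 and 158 FPKM in the other Znf143 -/- libraries), and 3 of the 7 markers, Elane and Mpo among them, were lowest in Znf143 -/- 1 of the Znf143 -/- libraries. That of 5 megakaryocyte markers was 529 to 603 FPKM and 651 to 980 FPKM, mostly Pf4 (820 FPKM in Znf143 -/- 1), with 3 of the 5 lowest in Znf143 -/- 1 of the Znf143 -/- libraries, 0 of 5 called by limma and 2 at an unadjusted p under 0.05. The 6 erythroid markers summed to 53.0 to 93.2 FPKM and 55.0 to 61.9 FPKM, with 0 of the 5 tested called and 2 at an unadjusted p under 0.05. Lymphoid markers summed to 0.198 to 0.361 FPKM and 7.24 to 8.07 FPKM, nearly all from Dntt, the 1 lymphoid marker tested, which was called higher (log2 fold change 4.88, limma adjusted p = 0.0064), while Cd79a, Cd3e, Cd3g and Il7r were listed at 0 in 2 to 4 libraries. The part of these cells in the synthetase levels was not tested.

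Genes that work beside the synthetases were compared through lists. Over all tested genes, 3% were called higher and 2.99% lower, and the few calls in these lists are not read as a result about the lists. Of 15 genes that serve tRNA charging and its editing, 0 were called higher and 1 lower, with a median log2 fold change of -0.09. The lower gene was Pstk, the kinase that prepares serine-loaded tRNA for conversion to selenocysteine. Pstk was at 6.72, 8.28 and 7.04 FPKM in Znf143 f/f and 4.26, 3.24 and 3.36 FPKM in Znf143 -/-. The groups lay well apart (log2 fold change -1.01, SE 0.145, limma adjusted p = 0.0138), and Pstk is on the study's target list.

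Of 34 genes of tRNA maturation, 0 were called higher and 2 lower, beside 3% and 2.99% of all tested genes. The median log2 fold change was 0.06. Adat2, the catalytic subunit of the enzyme that makes inosine at the wobble position of several tRNAs, was at 19.5, 27.3 and 19.1 FPKM in Znf143 f/f and 10.8, 12.9 and 12.6 FPKM in Znf143 -/-. Every Znf143 -/- library lay below every control (log2 fold change -0.84, SE 0.158, limma adjusted p = 0.0317). Rpp30, a protein subunit of ribonuclease P, which trims the 5′ end of tRNA precursors, was at 62.5, 74.8 and 69.0 FPKM in Znf143 f/f and 53.4, 43.6 and 46.0 FPKM in Znf143 -/-. The groups of Rpp30, a gene on the target list, did not overlap (log2 fold change -0.53, SE 0.112, limma adjusted p = 0.0440).

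Of 29 genes of the amino acid response, 28 were tested (Aldh1l2 was under the filter). Of these, 1 was called higher and 1 lower, beside 3% and 2.99% of all tested genes, and the median was 0.08. Asns, which makes asparagine and is a known ATF4 target, was at 21.5, 22.6 and 22.3 FPKM in Znf143 f/f and 27.4, 31.8 and 32.5 FPKM in Znf143 -/-. All Znf143 -/- libraries lay above the controls (log2 fold change 0.46, SE 0.0916, limma adjusted p = 0.0379). Gpt2, a mitochondrial alanine aminotransferase on the target list, was at 1.96, 1.21 and 1.96 FPKM in Znf143 f/f and 0.160, 0.526 and 0.525 FPKM in Znf143 -/-. Gpt2 was far below the controls in all 3 Znf143 -/- libraries, lowest in Znf143 -/- 1 (log2 fold change -1.92, SE 0.399, limma adjusted p = 0.0424). Atf4 itself was at 86.6, 94.4 and 87.4 FPKM in Znf143 f/f and 107, 92.2 and 95.02 FPKM in Znf143 -/-, with overlapping groups (log2 fold change 0.13, SE 0.0928, limma adjusted p = 0.434). Of the 5 genes called in these lists, Pstk alone also passed on the values as deposited (limma adjusted p = 0.0226, against 0.0505 to 0.161 for the other genes), and none passed with the close pairs averaged (limma adjusted p from 0.211 to 0.5), while all 5 kept their direction in all 17 alternatives.

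The 5 synthetase genes whose promoters hold the C/EBP-ATF letters had log2 fold changes of 0.39 (Yars), 0.37 (Tars), 0.33 (Gars), 0.29 (Aars) and 0.16 (Iars). All 5 lay above 0, as did 17 of the 20 cytosolic genes, and none passed the test. The log2 fold change of Iars turned to -0.04 without Znf143 f/f 2. The 3 with ACTACA had log2 fold changes of 0.37 (Tars), 0.27 (Farsa) and -0.15 (Yars2).

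**Figure D4:**
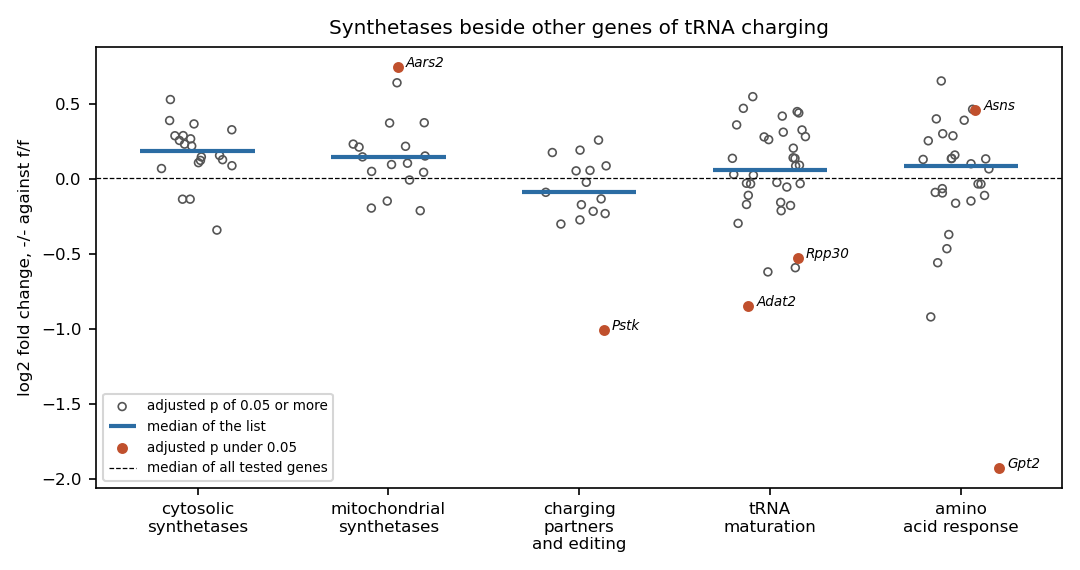
Log2 fold change of the synthetase genes and of 3 lists of related genes in Znf143 -/- against Znf143 f/f, with 1 circle per tested gene, filled where the adjusted p was under 0.05, a blue bar at the median of each list and a dashed line at the median of all tested genes. List medians run from -0.09 (charging partners and editing) to 0.19 (cytosolic synthetases), and the called genes are Aars2 and Asns above 0 and Pstk, Adat2, Rpp30 and Gpt2 below 0.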

How the data were processed

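HSLAM cells were profiled in 6 libraries (3 Znf143 f/f, 3 Znf143 -/-) made with SMART-Seq v4 and Nextera XT kits, which do not keep strand. Per the submitters, reads were aligned to GRCm38 with STAR, and the authors deposited FPKM per gene and library, with gene lengths. The columns of the authors' own comparison were not used. The libraries were assigned by the labels. FPKM times gene length gave whole fragments (within 0.05) for 99.99% of values, and the third Znf143 -/- library carried the divisor of the second (48378188), 1.20 times fewer than its own fragments. FPKM were therefore rescaled by median-of-ratios size factors. Genes with a mean of at least 0.1 FPKM were tested on log2(FPKM + 0.1), which understates changes of low genes, with limma 3.58.1 in R 4.3.3 (lmFit, eBayes with a variance trend, two-sided), adjusted by the Benjamini-Hochberg method over all tested genes. The fit was tested on simulated independent libraries, which lack the close pairs of the real libraries, so that test does not cover them. Exact permutation tests of ratios used numpy 2.4.6 in Python 3.11.15. Copies of member transcripts in GRCm38 were searched with blastn 2.17.0. Gene positions come from GENCODE on GRCm38 and promoters from RefSeq.

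A mitochondrial synthetase and a lymphoid marker are included in counts and sums but are not reported here singly, nor plotted by name. The synthetases and the gene lists were chosen with earlier results of these data known. Values in every library are given for synthetases with an adjusted p under 0.05, the 3 cytosolic and the 3 mitochondrial ones with the largest absolute log2 fold change, those with the highest and lowest Znf143 f/f mean, and those on the study's target list, and for called members of the other lists and Atf4. Alternatives were the deposited scaling, another total for the third Znf143 -/- library, pseudocounts of 0.01 and 1, no filter or a mean of at least 1 FPKM, no variance trend, voom on recovered fragments, the replicate number as a block, and each library left out. Averaging the close pairs of libraries was added after the data were seen.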

Additional observations from a re-analysis of the deposited data

How the results depend on the processing

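Leaving out single libraries, the number of genes called ranged from 223 to 2280, that of cytosolic synthetases from 0 to 5 and that of mitochondrial synthetases from 0 to 3. The highest synthetase counts were without Znf143 -/- 1, and the mitochondrial count was 0 without Znf143 f/f 1, Znf143 f/f 3, Znf143 -/- 2 or Znf143 -/- 3. Deviations of same-numbered libraries had correlations of -0.168, -0.143 and 0.0933. With so few libraries per group, these cannot settle whether the numbers mark littermate pairs. With the replicate number as a block, 191 genes and 0 mitochondrial synthetases were called. The mitochondrial count was also 0 with the block on FPKM as deposited (limma adjusted p of Aars2 of 0.0954 and 0.0592 in these fits). With the close pairs averaged, which leaves 2 against 2 samples, 47 genes and 0 mitochondrial synthetases were called. The cause of these differences was not tested. The deposited scaling called 833 genes, 63.5% of them higher, against 1154 with 50.1% higher after rescaling. Aars2 passed in 10 of 17 alternatives, with log2 fold changes from 0.62 to 0.86 and limma adjusted p from 0.0111 to 0.257. The cytosolic and mitochondrial medians kept their direction in all 17 and moved by less than the spread of the library medians (SD 0.153 and 0.226). That spread is close to or above the medians themselves (0.187 and 0.147), so this bound is wide and says little about their stability. Lars2, Tars and other genes with copies elsewhere, such as Iars, are limited by the counting. So are genes whose exons overlap those of another gene on either strand.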
